A study of Populus ussuriensis with 9 samples.

Results

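The plasma membrane intrinsic proteins (PIPs) of poplar leaves were followed here at 10 loci, which form 5 pairs of duplicate genes. They were chosen by a list of locus IDs and not by a rule on their values, but with earlier results of these data known. All 10 were found among the 29764 loci of the expression table. There are 4 PIP1 loci in 2 pairs and 6 PIP2 loci in 3 pairs. The assignment to PIP1 or PIP2 and to pairs comes with that list and was not checked against sequence. Other PIP loci of poplar and the other aquaporin families were not analysed here.

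RNA-seq was done on fully expanded leaves of Populus ussuriensis, with 3 libraries for each of 3 genotypes. OE18 is a transgenic line with high overexpression of the transcription factor gene LbDREB6, OE14 is a line with moderate overexpression of the same gene, and WT is the wild type. All plants were 6 months old, grew in a greenhouse and had water withheld, for 2 weeks by the sample descriptions and for 1 week by the treatment protocol. Every comparison is therefore between genotypes under drought, and watered plants were not analysed here. Since every overexpression level has just 1 line, the level and the line cannot be told apart. The sources used here do not give the promoter of the transgene, and LbDREB6 itself was not analysed here. The 3 WT libraries are the columns headed C1 to C3, taken as WT by elimination. Library totals, recovered from the FPKM values, ran from 10988010 to 16221919 reads. Nearly all of each total lay in genes of the table, so it is not the number of reads sequenced.

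Aquaporins are membrane channels that assemble as tetramers and let water, and in some cases small neutral solutes, pass along a gradient. PIPs are the aquaporins of the plant plasma membrane, and in leaves they take part in moving water from the veins into the mesophyll. The family is divided into PIP1 and PIP2. In Xenopus oocytes PIP2 proteins generally raise water permeability by themselves, whereas many PIP1 proteins, as shown for maize, reach the plasma membrane efficiently only when a PIP2 partner joins them in the tetramer. Poplar carries many genes as pairs of copies left by an ancient genome duplication. LbDREB6 belongs by its name to the DREB family, transcription factors that bind dehydration-responsive elements. The values are FPKM, reads scaled to gene length and library total. Comparing levels between loci therefore rests on the gene lengths used, which were not checked. In bulk leaf RNA, fewer cells of a type and less RNA per cell cannot be told apart.

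The summed level of the 10 loci was 0.951 times that of WT in OE18 and 1.05 times in OE14, while single loci differed far more. In OE18 the most abundant locus of WT, a PIP1 gene, was at 0.430 times its WT level, and 6 other loci were called higher, the most by 28.3 times. In OE14 the change of the same PIP1 gene did not pass the test, and 6 loci were called higher, by 1.12 to 1.73 times. Of all tested genes, 41.6% were called higher in OE18 against WT and 31.9% in OE14 against WT. Within every pair the balance of the 2 copies differed among the genotypes.

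**Figure D1:**
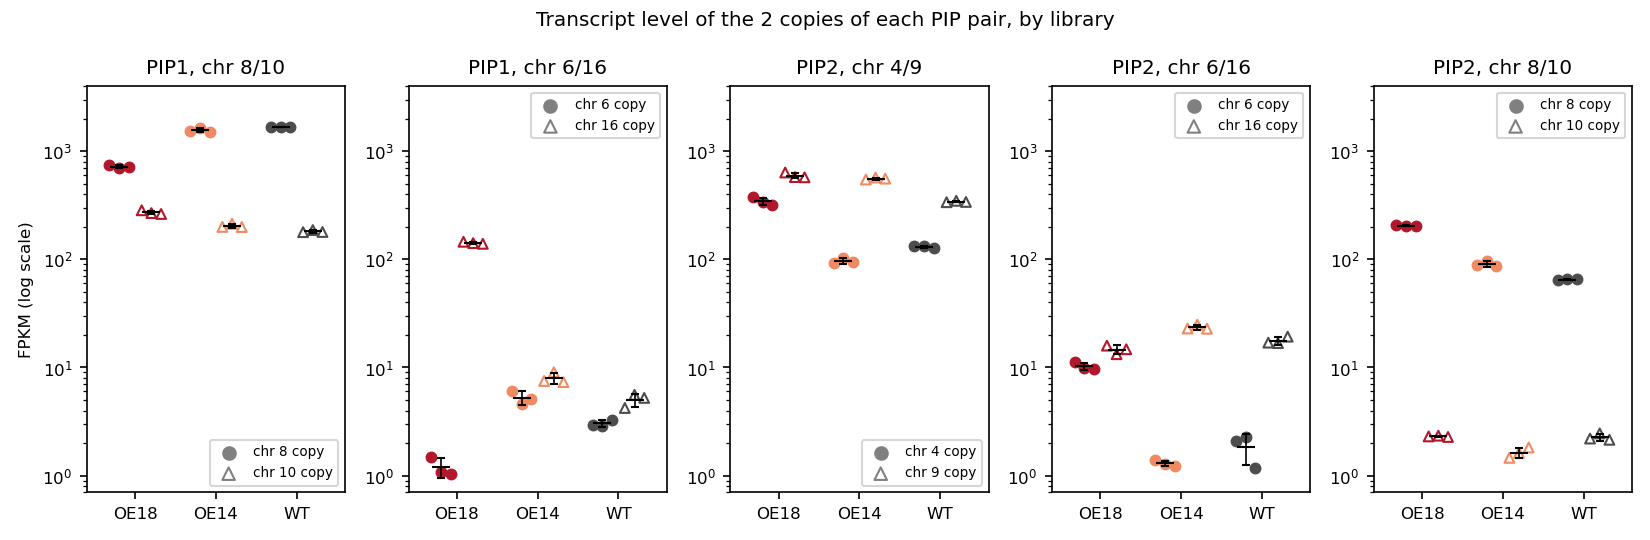
FPKM on a log scale for the 2 copies of each of the 5 PIP pairs, with 1 point per library (filled circles for the copy on the lower-numbered chromosome, open triangles for the other), and bars for the mean ± SD of 3 libraries. In the PIP1 pair of chromosomes 6 and 16 the OE18 copies lie far apart, at 142 FPKM for the chromosome 16 copy and 1.21 FPKM for the chromosome 6 copy.

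The same 2 loci had the highest levels in all 3 genotypes, while the lowest places differed. In OE18 the first place was held by Potri.008G065600.v3.0 (PIP1) with 718 ± 25.4 FPKM and the second by Potri.009G136600.v3.0 (PIP2) with 594 ± 35.1 FPKM (SD, n = 3 each), and no neighbours in the order had overlapping libraries. In OE14 the same loci led with 1562 ± 70.02 and 558 ± 11.9 FPKM (SD, n = 3 each), and the libraries of Potri.004G176300.v3.0 and Potri.008G039600.v3.0, in the fourth and the fifth place, overlapped. In WT they led with 1672 ± 8.70 and 341 ± 5.42 FPKM (SD, n = 3 each), and Potri.008G065600.v3.0 ranked 55 among all loci of the table by its mean in OE18, 14 in OE14 and 16 in WT. The lowest loci of WT, Potri.010G221700.v3.0 and Potri.006G128000.v3.0, both PIP2, had 2.27 ± 0.166 and 1.85 ± 0.594 FPKM (SD, n = 3 each) and overlapped. Potri.006G098100.v3.0 (PIP1) held the last place in OE18, against the eighth in OE14 and WT. All 10 loci had an FPKM of at least 1 in each of the 9 libraries, the lowest value being 1.04, so none entered the tests through a single genotype.

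Among the PIP1 loci, the pair on chromosomes 8 and 10 held most of the summed FPKM, with 989 of 1132 FPKM in OE18, 1765 of 1779 FPKM in OE14 and 1853 of 1861 FPKM in WT. Potri.008G065600.v3.0 had 747, 699 and 709 FPKM in OE18, 1534, 1641 and 1509.6 FPKM in OE14, and 1662, 1677 and 1676 FPKM in WT. The OE18 libraries lay far below all others, and the OE14 libraries lay just below those of WT without overlap. In OE18 the locus fell against WT, at -1.22 on the log2 scale (SE 0.044, limma adjusted p = 9.2e-12), which is a level 2.33 times lower. Fold changes were tested on the log2(FPKM + 1) scale with p adjusted over all tested genes. It also fell against OE14, by 1.12 on the log2 scale (SE 0.044, limma adjusted p = 2.6e-11). The difference of -0.10 between OE14 and WT was not called (SE 0.044, limma adjusted p = 0.075; 95% interval -0.19 to -0.0039). The call and direction of this small difference depended on the setting. Quantile normalization alone reversed it, to 0.17, and called it higher in OE14 (limma adjusted p = 0.0012). It stayed negative under every other alternative. It was called lower under median-of-ratios scaling (-0.17, limma adjusted p = 0.012), with limma voom (-0.097, adjusted p = 0.0062) and without the second OE14 library (-0.14, limma adjusted p = 0.019).

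Its partner on chromosome 10 went the other way. Potri.010G191900.v3.0 had 284, 267 and 262 FPKM in OE18, 199, 213 and 199 FPKM in OE14, and 178, 186 and 179 FPKM in WT. The 3 genotypes formed 3 levels without overlap, with OE18 the highest and WT the lowest. The rise against WT was 0.58 in OE18 (SE 0.044, limma adjusted p = 2.6e-08) and 0.17 in OE14 (SE 0.044, limma adjusted p = 0.0057) on the log2 scale. Median-of-ratios scaling reduced the OE14 rise to 0.10, which was no longer called (limma adjusted p = 0.1). The rise of the chromosome 10 copy, from a far lower level, did not make up for the fall of its partner, and the pair summed to 989 ± 35.9 FPKM in OE18, 1765 ± 78.2 FPKM in OE14 and 1853 ± 11.9 FPKM in WT (SD, n = 3 each).

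The second PIP1 pair, on chromosomes 6 and 16, was low in WT and held the largest change of all members. Potri.016G113300.v3.0 had 145, 141 and 139 FPKM in OE18, 7.5, 9.03 and 7.33 FPKM in OE14, and 4.22, 5.58 and 5.23 FPKM in WT. In OE18 its libraries were all more than 10 times above every other library, and its rank among all loci of the table was 574 in OE18, 11513 in OE14 and 14033 in WT. The mean level in OE18 was 28.3 times that of WT and 17.8 times that of OE14. The log2 fold change was 4.58 for OE18 against WT (SE 0.089, limma adjusted p = 1.8e-14) and 4.0 for OE18 against OE14 (SE 0.089, limma adjusted p = 1.1e-13). In OE14 it also rose, by 0.58 (SE 0.089, limma adjusted p = 0.00011). The WT values rest on 103 to 118 reads per library and the OE18 values on 2785 to 3557.

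In OE18 the chromosome 6 copy of that pair did not take part in the rise. Potri.006G098100.v3.0 had 1.5, 1.08 and 1.04 FPKM in OE18, 6.08, 4.56 and 5.12 FPKM in OE14, and 2.96, 2.90 and 3.26 FPKM in WT. It was lowest in OE18 and highest in OE14, with WT in between and no overlap. Against WT it fell in OE18, at -0.88 on the log2 scale (SE 0.12, limma adjusted p = 1.3e-05), and rose in OE14, with 0.62 (SE 0.12, limma adjusted p = 0.00071). The added pseudocount understates changes at this level, and limma voom on reads recovered from the FPKM gave -1.32 and 0.75. These values rest on few reads, 17 to 30 per library in OE18, 106 to 113 in OE14 and 50 to 59 in WT.

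Among the PIP2 loci, the pair on chromosomes 4 and 9 was the most abundant. Potri.009G136600.v3.0 had 635, 575 and 573 FPKM in OE18, 546, 569.9 and 557 FPKM in OE14, and 337, 347 and 339 FPKM in WT. All transgenic libraries lay above all WT libraries, and the OE18 libraries lay just above those of OE14. It rose by 0.80 in OE18 (SE 0.045, limma adjusted p = 9.2e-10) and by 0.71 in OE14 (SE 0.045, limma adjusted p = 2e-08) against WT on the log2 scale. The direct difference of 0.09 between OE18 and OE14 was not called (SE 0.045, limma adjusted p = 0.08), with a 95% interval of -0.0061 to 0.19. It was called under median-of-ratios scaling (0.12, limma adjusted p = 0.04), with limma voom (0.09, adjusted p = 0.027) and without the third OE18 library (0.12, limma adjusted p = 0.048). It was smaller and not called with FPKM rescaled to the same sum in every library (TPM; 0.0040, limma adjusted p = 0.94), under quantile normalization (0.0065, limma adjusted p = 0.89) and without the first OE18 library (0.042, limma adjusted p = 0.33).

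The chromosome 4 copy of this pair was high in OE18 but low in OE14. Potri.004G176300.v3.0 had 374, 337 and 320 FPKM in OE18, 92.1, 103 and 95.1 FPKM in OE14, and 133, 131 and 126 FPKM in WT. OE18 stood above WT and OE14 below it, with no overlap. The log2 fold change against WT was 1.39 in OE18 (SE 0.058, limma adjusted p = 3.6e-11) and -0.43 in OE14 (SE 0.058, limma adjusted p = 3.1e-05), and the lines differed by 1.82 (SE 0.058, limma adjusted p = 3e-12). The pair as a whole summed to 938 ± 62.4 FPKM in OE18, 654 ± 17.2 FPKM in OE14 and 471 ± 6.81 FPKM in WT (SD, n = 3 each).

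The PIP2 pair on chromosomes 6 and 16 was weakly transcribed, and its copies moved in opposite directions in OE18. Potri.006G128000.v3.0 had 11.2, 9.96 and 9.64 FPKM in OE18, 1.38, 1.27 and 1.24 FPKM in OE14, and 2.09, 2.28 and 1.17 FPKM in WT. Every OE18 library was above every other library, and the OE14 and WT libraries overlapped because the WT library headed C3 was low. The rise in OE18 against WT was 2.01 on the log2 scale (SE 0.14, limma adjusted p = 1.1e-08), or 2.50 with limma voom on the recovered reads. The difference of -0.29 between OE14 and WT was not called (SE 0.14, limma adjusted p = 0.1), but limma called it at -0.47 without C3 (adjusted p = 0.0038) and at -0.39 under quantile normalization (adjusted p = 0.03). Without C2 it was -0.17 (limma adjusted p = 0.35), and without C1 -0.22 (limma adjusted p = 0.28).

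Its partner on chromosome 16 showed the reverse. Potri.016G089500.v3.0 had 15.9, 13.3 and 14.7 FPKM in OE18, 22.9, 24.8 and 22.8 FPKM in OE14, and 17.0, 16.8 and 19.3 FPKM in WT. OE14 was the highest and OE18 the lowest, without overlap. The log2 fold change against WT was -0.26 in OE18 (SE 0.075, limma adjusted p = 0.0066) and 0.39 in OE14 (SE 0.075, limma adjusted p = 0.00064), and the difference of OE18 from OE14 was -0.65 (SE 0.075, limma adjusted p = 2.4e-06). The sum of the pair was 24.9 ± 2.01 FPKM in OE18 and 24.8 ± 1.12 FPKM in OE14, against 19.5 ± 0.791 FPKM in WT (SD, n = 3 each). The chromosome 16 copy gave most of the sum in all 3 genotypes, and the chromosome 6 copy held 41.2% of it in OE18, 5.23% in OE14 and 9.54% in WT.

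In the PIP2 pair on chromosomes 8 and 10 a single copy carried the transcript. Potri.008G039600.v3.0 had 206, 202 and 203 FPKM in OE18, 89.0, 96.5 and 86.0 FPKM in OE14, and 64.5, 65.2 and 65.1 FPKM in WT. The genotypes stood at 3 separate levels, OE18 the highest and WT the lowest. It rose against WT by 1.63 in OE18 (SE 0.045, limma adjusted p = 5.3e-13) and by 0.47 in OE14 (SE 0.045, limma adjusted p = 1.2e-06) on the log2 scale, and it was 1.16 higher in OE18 than in OE14 (SE 0.045, limma adjusted p = 2e-11).

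The other copy of that pair was low in every genotype. Potri.010G221700.v3.0 had 2.30, 2.34 and 2.28 FPKM in OE18, 1.46, 1.62 and 1.82 FPKM in OE14, and 2.2, 2.46 and 2.14 FPKM in WT. OE14 lay below both other genotypes, and OE18 lay within the WT range. In OE14 it fell against WT by 0.31 on the log2 scale (SE 0.1, limma adjusted p = 0.021), a call that was lost without C2 (adjusted p = 0.077), without the first OE14 library (adjusted p = 0.078) or without the second (adjusted p = 0.052). The OE18 difference of 0.02 was not called (SE 0.1, limma adjusted p = 0.87; 95% interval -0.21 to 0.24) and was -0.34, called lower, under quantile normalization. OE18 was higher than OE14 by 0.33 (SE 0.1, limma adjusted p = 0.0099), which was 0.08 and not called under quantile normalization (adjusted p = 0.47). The lengths recovered from the FPKM were 3139 bases for the chromosome 8 copy and 4035 for the chromosome 10 copy, against 1360 to 1822 for the other 8 loci. A longer length gives a lower FPKM for the same reads, so the place of this pair beside other loci and in the PIP2 sums depends on these lengths.

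**Figure D2:**
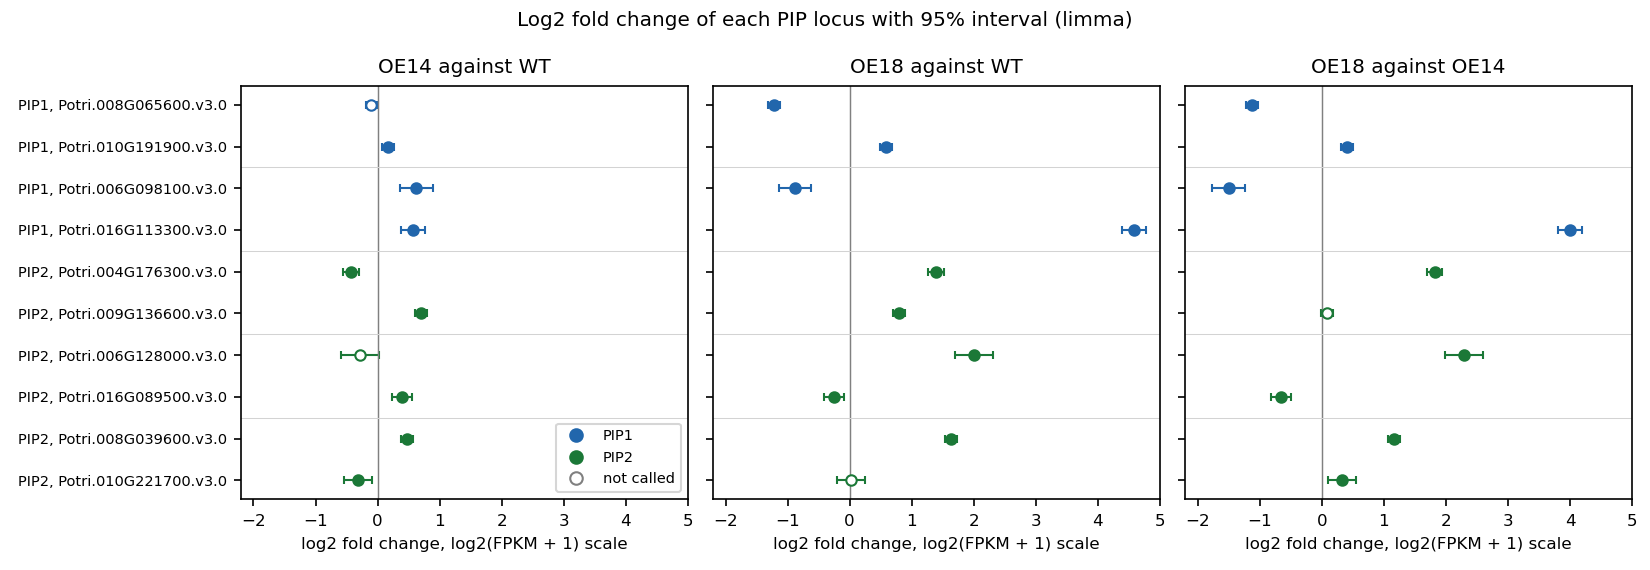
Log2 fold change of each of the 10 loci on the log2(FPKM + 1) scale, with the 95% interval from limma, for the 3 comparisons. Blue marks PIP1, green PIP2 and open circles comparisons that were not called. In OE18 against WT the values run from -1.22 to 4.58, and in OE14 against WT from -0.43 to 0.71.

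Counted over the list, 6 of 10 loci were called higher and 3 lower in OE18 against WT, where 79.5% of all 22848 tested genes were called, 41.6% higher and 37.9% lower. The larger share of these calls over all genes turned with scaling, from 9510 higher and 8648 lower to 8099 higher and 10543 lower under quantile normalization, and to 8784 higher and 9480 lower as TPM. In OE14 against WT, 6 were called higher and 2 lower, where 52.8% of the genes were called, 31.9% higher and 20.9% lower. The excess of higher calls over all genes there shrank with scaling. It went from 7297 higher and 4777 lower to 6225 and 5861 under median-of-ratios scaling, and to 6040 and 5766 under quantile normalization. In OE18 against OE14, 6 were called higher and 3 lower, with 77.7% of the genes called, 38.8% in each direction. These comparisons share libraries. By 2-fold or more on the log2(FPKM + 1) scale, 4 loci were higher in OE18 than in WT (18.8% of all genes) and 1 was lower (9.33%). The 4 were Potri.016G113300.v3.0, Potri.006G128000.v3.0, Potri.008G039600.v3.0 and Potri.004G176300.v3.0, and the 1 was Potri.008G065600.v3.0. Potri.006G098100.v3.0, at -0.88, also passed 2-fold lower with a pseudocount of 0.5 (-1.06) or 0.1 (-1.28), under quantile normalization (-1.20) and with limma voom (-1.32), which makes 2 lower. In OE14 against WT no locus passed 2-fold in limma's fit, where 3.55% of all genes were higher and 1.93% lower by that size. The median log2 fold change of the members was 0.69 in OE18 against WT, beside 0.03 over all tested genes, and 0.28 in OE14 against WT, beside 0.07. Quantile normalization put the median of all genes at -0.14 in OE18 against WT and at -0.11 in OE18 against OE14, where the deposited values gave 0.03 and -0.01. Libraries did not overlap for 9 of 10 loci in OE18 against WT (80.3% of all genes) for 9 of 10 in OE14 against WT (60.4%), and for all 10 in OE18 against OE14 (79.1%).

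**Figure D3:**
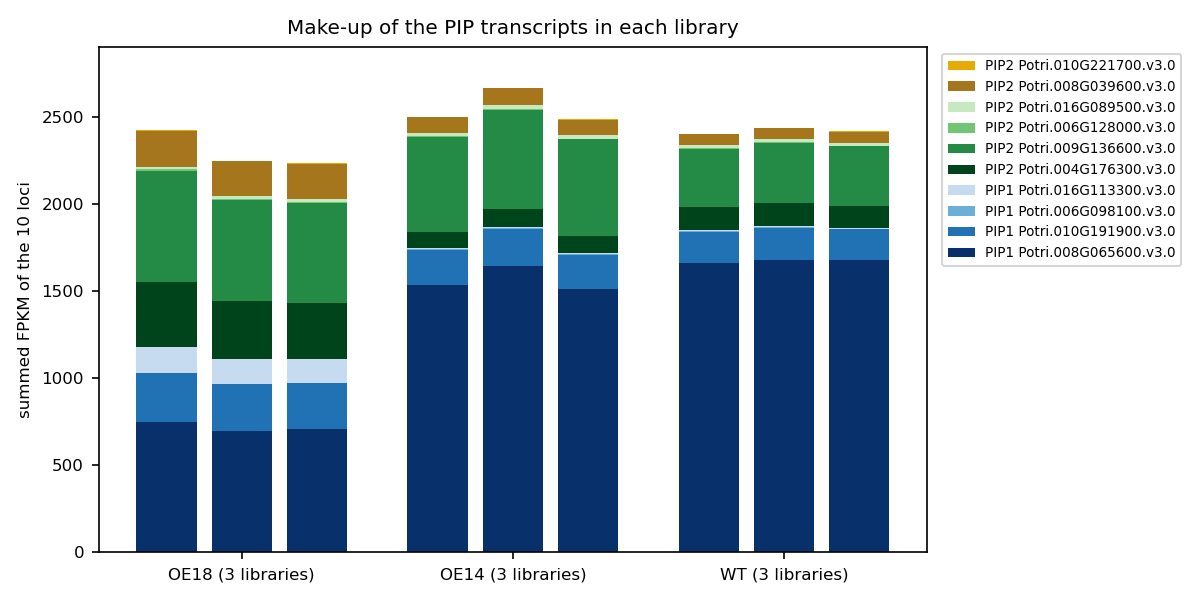
Stacked FPKM of the 10 loci in each library, PIP1 in blue, PIP2 in green and brown, with 3 libraries per genotype. The height of the bars lies between 2233 and 2665 FPKM throughout, while the blue part shrinks to 1108 to 1177 FPKM in OE18, against 1847 to 1872 FPKM in WT.

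The summed level of the 10 loci varied less than its make-up. The sum was 2301 ± 105 FPKM in OE18, 2549.7 ± 100.03 FPKM in OE14 and 2419 ± 17.3 FPKM in WT (SD, n = 3 each). PIP1 loci summed to 1177, 1108 and 1111 FPKM in OE18, 1747, 1868 and 1721 FPKM in OE14, and 1847, 1872 and 1864 FPKM in WT. PIP2 loci summed to 1244, 1139 and 1122 FPKM in OE18, 753, 797 and 764 FPKM in OE14, and 556, 566 and 553 FPKM in WT. The PIP2 sums thus formed 3 levels without overlap, and the PIP1 sums separated OE18 from the rest. These sums are descriptions and were not tested.

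PIP2 made up 50.8 ± 0.58% of the member FPKM in OE18, 30.3 ± 0.434% in OE14 and 23.1 ± 0.168% in WT (SD, n = 3 each). The ratio of summed PIP1 to summed PIP2 was 0.946 to 0.991 in the OE18 libraries, 2.25 to 2.34 in those of OE14 and 3.31 to 3.37 in those of WT. A factor common to a whole library cancels in these shares. The most abundant locus, Potri.008G065600.v3.0, held 31.2 ± 0.467% of the member FPKM in OE18, 61.2 ± 0.425% in OE14 and 69.1 ± 0.281% in WT (SD, n = 3 each). Potri.016G113300.v3.0 held 6.17 ± 0.151% in OE18, 0.311 ± 0.0241% in OE14 and 0.207 ± 0.0279% in WT (SD, n = 3 each). The 10 loci took 0.396 ± 0.0164% of the recovered library total of reads in OE18, 0.432 ± 0.0175% in OE14 and 0.411 ± 0.00289% in WT (SD, n = 3 each). Of all FPKM they took 0.411 ± 0.0167% in OE18, 0.484 ± 0.0207% in OE14 and 0.462 ± 0.0036% in WT (SD, n = 3 each), which is 0.891 times the WT share in OE18.

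**Figure D4:**
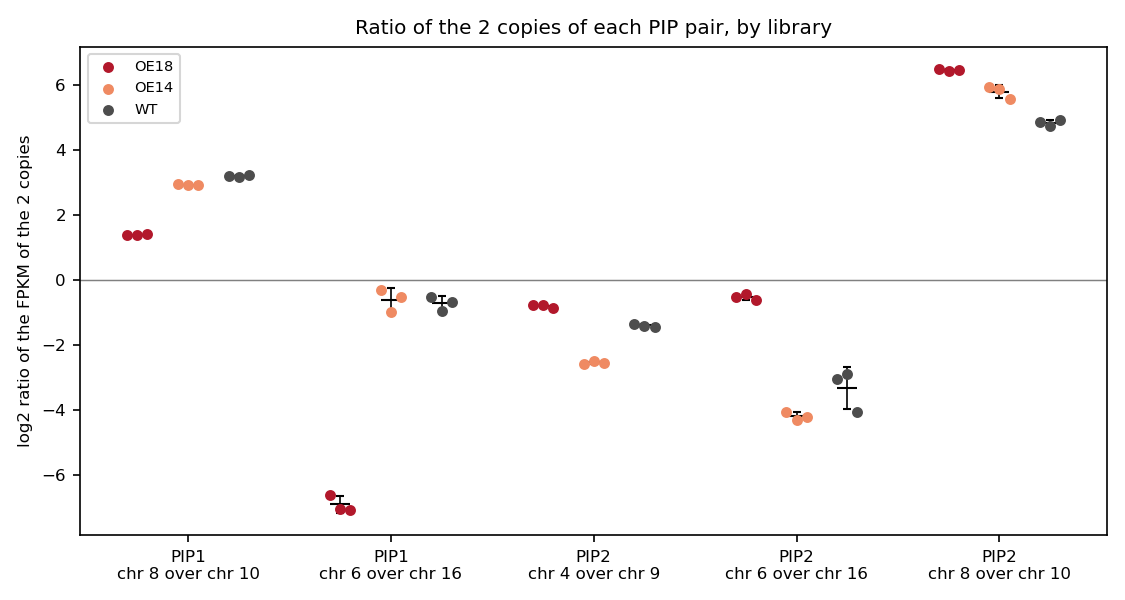
Log2 ratio of the FPKM of the 2 copies of each pair in every library, the lower-numbered chromosome over the other, with bars for the mean ± SD of 3 libraries per genotype. OE18 lies apart from OE14 and WT in all 5 pairs, and OE14 and WT overlap only in the PIP1 pair of chromosomes 6 and 16.

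The ratio of the 2 copies was taken within each library and compared over the 3 genotypes by an exact permutation test of the F statistic, with 280 arrangements of the 9 libraries and p adjusted over the 5 pairs. The ratio differed among the genotypes in each of the 5 pairs. For 4 pairs the exact permutation p was 0.00357, the smallest that 280 arrangements can give (adjusted p = 0.00446), and for the PIP1 pair of chromosomes 6 and 16 it was 0.0286 (adjusted p = 0.0286). The sources used here do not say how reads shared by similar copies were assigned, so the values of the copies are uncertain to the extent that they share reads, which was not tested.

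In the PIP1 pair of chromosomes 8 and 10, the chromosome 8 copy exceeded its partner by 2.63, 2.61 and 2.70 times in OE18, 7.70, 7.69 and 7.60 times in OE14, and 9.32, 9.0 and 9.37 times in WT. The imbalance was least in OE18, and the replicates hardly varied. In the PIP1 pair of chromosomes 6 and 16, the chromosome 16 copy exceeded its partner by 96.8, 130.3 and 134 times in OE18, by 1.23, 1.98 and 1.43 times in OE14, and by 1.43, 1.93 and 1.60 times in WT. The OE18 ratios rest on 17 to 30 reads of the chromosome 6 copy per library.

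For the PIP2 pair of chromosomes 4 and 9, the chromosome 9 copy was above its partner by 1.70, 1.71 and 1.79 times in OE18, 5.93, 5.55 and 5.85 times in OE14, and 2.53, 2.64 and 2.69 times in WT. WT thus lay between the lines, OE14 being the most unequal and OE18 the least. The PIP2 pair of chromosomes 6 and 16 had the same order, with the chromosome 16 copy above its partner by 1.42, 1.33 and 1.53 times in OE18, 16.6, 19.6 and 18.4 times in OE14, and 8.13, 7.36 and 16.5 times in WT. There the WT library headed C3, with 18 reads of the chromosome 6 copy, came close to the OE14 libraries.

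The PIP2 pair of chromosomes 8 and 10 was the most unequal in WT and was more so in the lines. Its chromosome 8 copy exceeded the chromosome 10 copy by 89.4, 86.2 and 89.0 times in OE18, 60.9, 59.6 and 47.2 times in OE14, and 29.3, 26.5 and 30.4 times in WT. The same copy led in all 9 libraries in each of the 5 pairs.

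Likeness between loci was measured as the Euclidean distance between their log2(FPKM + 1) values over the 9 libraries, each centred on its mean. For 0 of the 10 loci was the partner copy the nearest of the other 9 members. Few matches would be expected at random among 9 candidates, so this count is a description and was not tested. The distance grows with the size of a change, and Potri.016G113300.v3.0 was at least 3.26 from every other member. The nearest members were Potri.010G191900.v3.0 (PIP1) and Potri.009G136600.v3.0 (PIP2), at a distance of 0.667, both higher in the lines than in WT. Potri.004G176300.v3.0 and Potri.006G128000.v3.0, PIP2 genes of different pairs, were 0.903 apart. The partners themselves were 1.99 to 7.77 apart. For the PIP1 pair of chromosomes 6 and 16, the most distant, 22748 of the 22848 tested genes were nearer to the chromosome 6 copy than its partner was. That was the highest number for any copy, and the lowest was 8609, for the chromosome 4 copy of the PIP2 pair of chromosomes 4 and 9. Over all tested genes, the patterns most like that of the leading locus Potri.008G065600.v3.0 were those of Potri.002G215100.v3.0 (distance 0.141), with 78.3 ± 2.02 FPKM in OE18, 173 ± 11.3 FPKM in OE14 and 173 ± 3.82 FPKM in WT, and Potri.016G031100.v3.0 (distance 0.142), with 11.2 ± 0.493 FPKM in OE18, 25.5 ± 1.32 FPKM in OE14 and 28.1 ± 0.312 FPKM in WT (SD, n = 3 each).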

How the data were processed

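The authors deposited 1 table of FPKM values, with a column for each of 9 leaf libraries. Bowtie2 2.2.3 and HISAT2 2.1.0 are named in the submitters' processing notes. Not stated are the counting tool, genome build, annotation release, use of strand and treatment of shared reads. Library totals, gene lengths and whole reads were recovered from the FPKM values, and all 29764 genes gave whole reads within 1e-05 reads. Only the series text calls the libraries biological replicates, so p-values measure the spread between these libraries, which may be technical.

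The 22848 genes that reached 1 FPKM in 3 or more libraries were tested on the log2(FPKM + 1) scale. The test was limma (version 3.58.1, R version 4.3.3) with a variance trend, in 1 fit over all 9 libraries, two-sided, adjusted by Benjamini-Hochberg over all tested genes and called under 0.05. The fit and the permutation test were also run on simulated data, with a spread that was set and not estimated from these libraries. The outcomes are not given here. The simulation for the fit changed few genes, in OE18 alone, so it did not check the fit under changes as broad as those seen here. Copy ratios were tested by exact permutation over libraries (Python 3.11.15), since 3 against 3 libraries cannot go below 0.1. All members are named, plus the 2 genes nearest in pattern to the most abundant member. The members and lists were chosen with earlier results of these data known. The planned lists of other aquaporins and leaf markers were not applied, because no annotation of the IDs was used here, so leaf identity was not checked. Alternatives were other pseudocounts, filters and scalings, voom, the genotypes compared alone, a replicate block, and leaving out each library.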

Additional observations from a re-analysis of the deposited data

Results flagged for a closer look

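The 2 lines differed for 9 of the 10 loci by the direct test of OE18 against OE14 (limma adjusted p under 0.05), where 77.7% of all tested genes were called. The difference in log2 fold change, OE18 minus OE14, was positive for Potri.016G113300.v3.0 (4.0), Potri.006G128000.v3.0 (2.29), Potri.004G176300.v3.0 (1.82), Potri.008G039600.v3.0 (1.16), Potri.010G191900.v3.0 (0.41) and Potri.010G221700.v3.0 (0.33). It was negative for Potri.006G098100.v3.0 (-1.50), Potri.008G065600.v3.0 (-1.12) and Potri.016G089500.v3.0 (-0.65). For Potri.004G176300.v3.0, Potri.006G098100.v3.0 and Potri.016G089500.v3.0 the lines were called against WT in opposite directions. Each line is 1 transgenic event as far as the labels say, so overexpression level and line cannot be told apart.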

How the results depend on the processing

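Of 30 comparisons of a single locus, 23 kept their direction and their side of the threshold under every alternative run, and of 541 values 526 did. Reversals occurred under quantile normalization, for Potri.008G065600.v3.0 in OE14 against WT (0.17) and Potri.010G221700.v3.0 in OE18 against WT (-0.34). Leaving out 1 library gave 1 to 3 loci called lower in OE14 against WT (2 with all libraries; 1 without C2 or without the first OE14 library, with Potri.010G221700.v3.0 no longer called), and the other counts of called loci stayed within 1.5 times. Among genes with a mean of 5 FPKM or more, 1 locus was called lower in OE14 against WT, because this filter leaves out Potri.010G221700.v3.0. That filter also gave 5933 genes called higher in OE18 against WT, and 5536 in OE18 against OE14, against 9510 and 8869. Fewer genes are tested with it, so these counts do not compare the shares called. Summed levels moved with scaling. On the log2 scale, PIP1 in OE14 over WT was -0.07, but 0.18 under quantile normalization and -0.14 under median-of-ratios scaling. PIP1 in OE18 over WT was -0.72, but -0.57 under quantile normalization and -0.81 as TPM. PIP2 in OE14 over WT was 0.47, but 0.40 under median-of-ratios scaling, and in OE18 over WT 1.07, but 0.97 as TPM. All members in OE14 over WT were at 0.08, but 0.25 under quantile normalization and 0.0058 under median-of-ratios scaling, and in OE18 over WT at -0.07, but 0.015 under quantile normalization and -0.17 as TPM. The cause was not tested. Calls over all genes in OE14 against WT were 60.4% higher, but 51.2% under quantile normalization and 51.5% under median-of-ratios scaling. In OE18 against WT they were 52.4% higher, but 43.4% under quantile normalization and 48.1% as TPM. The copy ratio tests kept their call with each library left out, and with the ratio of FPKM + 1. Their OE18 minus WT values ranged from -1.82 to -1.79 and from -6.33 to -6.08 for the PIP1 pairs of chromosomes 8/10 and 6/16, and from 0.58 to 0.62, from 2.44 to 3.02 and from 1.56 to 1.66 for the PIP2 pairs of chromosomes 4/9, 6/16 and 8/10. Same-numbered OE14 and OE18 libraries correlated at 0.0997, 0.0606 and -0.0152 in their deviations across genes, so the numbers were not taken as pairs. With the replicate block, OE18 against OE14 gave 6 loci higher and 3 lower, as without it. For comparisons with WT no pairing by number was assigned, because the headings C1 to C3 do not carry the WT sample titles. Depth limits the loci with few reads, 17 to 59 per library for Potri.006G098100.v3.0 in OE18 and WT and 18 to 38 for Potri.006G128000.v3.0 in OE14 and WT.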
